A study of Mus musculus with 12 samples.

Results

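The G1 cyclins and their kinases are 8 genes: the D-type cyclins Ccnd1, Ccnd2 and Ccnd3, the E-type cyclins Ccne1 and Ccne2, and the cyclin-dependent kinases Cdk2, Cdk4 and Cdk6. They were taken by name, and all 8 were found among the 25097 genes of each library. The 12 RNA-seq libraries come from G1E-ER-GATA-1 cells, a mouse erythroid precursor line without native GATA-1 that carries GATA-1 fused to the estrogen receptor's ligand-binding domain. Estradiol therefore switches GATA-1 on in these cells. Mutant cells with Alas2 cis-elements altered, called double mutants in the labels, received 1 µM beta-estradiol with 1 mM 5-aminolevulinic acid (5-ALA) for 48 h in 3 libraries. In 3 more libraries mutant cells received estradiol alone for 48 h. WT cells with the same estradiol treatment, and WT cells left untreated, gave 3 libraries each. All groups were grown in erythropoietin, Kit ligand-conditioned medium and puromycin. Alas2 encodes the enzyme that makes 5-ALA in erythroid cells, so that added 5-ALA feeds heme synthesis past that step. How many clones the mutant libraries come from is not given, and the labels do not say whether replicates were separate cultures, so that p-values measure the spread between these libraries, which may be technical.

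D-type cyclins bind CDK4 and CDK6 and begin the phosphorylation of the retinoblastoma protein, which holds back E2F transcription factors in G1. E2F activity then raises the E-type cyclins, which bind CDK2 and carry cells into S phase. Inhibitors of the INK4 family (Cdkn2a to Cdkn2d) block CDK4 and CDK6, and those of the CIP/KIP family (Cdkn1a to Cdkn1c) act on CDK2 complexes. In the erythroid lineage cyclin D3 is known to set the number of divisions before maturation ends, and CDK6 loss or block affects red cell production in mice.

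Libraries held 20309085 to 43548387 expected counts, and 12115 genes, the 8 cyclin and kinase genes among them, had enough counts to be tested. Pearson's r across genes was 0.9923 to 0.9949 for libraries of 1 group. Alas2 followed the labels, at 9.67 to 10.7 TPM (a length-scaled relative abundance) in mutant cells with estradiol and 5-ALA, 4.87 to 10.2 TPM in mutant cells with estradiol, 3513 to 3543 TPM in WT cells with estradiol and 4.76 to 6.19 TPM in untreated WT cells. Gata1 averaged 596.5 TPM, 688.7 TPM, 720.6 TPM and 443.9 TPM in the same order of groups. The 7 erythroid markers summed to 126399 to 132876 TPM, 42411 to 44588 TPM, 128888 to 131428 TPM and 541 to 587 TPM in the same order of groups. The 6 granulocyte and macrophage markers summed to at most 5.77 TPM, and lymphocyte and fibroblast markers to at most 0.22 TPM, in any library.

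Promoter sequence was found for 5 of the 8 genes (RefSeq, GRCm38.p6). The 250 bases before the start were searched on both strands for 3 motifs, the E-box CACGTG bound by MYC and related factors, the E2F-type motif TTTNNCGC and the GATA-type motif AGATAA. Cdk4 and Cdk6 are shown because both fell with estradiol and only they, among the 5 genes, held an E-box. Capitals mark E-boxes and, in Cdk6, also the E2F-type match TTTTACGC. The Cdk4 window is chr10:127063285-127063534, plus strand, and the Cdk6 window is chr5:3343643-3343892, plus strand. Starts here are those of RefSeq and can differ from the gene positions given below. The Cdk6 window lies inside the gene span given there, which begins at 3341485.
Cdk4: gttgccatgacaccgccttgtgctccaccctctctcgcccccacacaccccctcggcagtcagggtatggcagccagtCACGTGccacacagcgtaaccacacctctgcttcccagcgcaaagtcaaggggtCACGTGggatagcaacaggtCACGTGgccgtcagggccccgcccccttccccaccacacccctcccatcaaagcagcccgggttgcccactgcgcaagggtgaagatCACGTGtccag
Cdk6: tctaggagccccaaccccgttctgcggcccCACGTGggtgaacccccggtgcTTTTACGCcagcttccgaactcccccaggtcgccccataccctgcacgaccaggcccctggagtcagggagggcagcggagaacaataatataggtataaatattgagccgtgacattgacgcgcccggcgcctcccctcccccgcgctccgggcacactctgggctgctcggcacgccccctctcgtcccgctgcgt
The Cdk4 window held 4 E-boxes, beginning 172, 118, 98 and 11 bases before the start. Of 32851 promoter windows 1978 (6.02%) held at least 1 E-box and 7 (0.0213%) held 4 or more. The Cdk6 window held 1 E-box, 220 bases before the start. An E2F-type match stood 198 bases before the Cdk6 start and 140 bases before the Cdk2 start, and 4.28% of all windows held one. The GATA-type motif, held by 9.99% of windows, was in none of these windows, and none of the 3 motifs was in the Ccne1 window or in either of the Ccnd3 windows. A match describes the letters and does not show binding.

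Estradiol in WT cells lowered 6 of the 8 genes and raised Ccnd3 and Ccnd1. Cdk6 had the largest change of the 8, a 57.1-fold fall, and the cyclin D pool became almost wholly Ccnd3. Of all 12115 genes tested, 89.7% were called in this comparison at an adjusted p below 0.05, with 46.4% lower and 43.3% higher, so that a call by itself says little here. The median log2 fold change of the 8 genes was -1.80, against -0.03 for all tested genes. In bulk RNA, fewer cells in cycle and less transcript per cell cannot be told apart.

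Cdk6, which encodes a partner of the D-type cyclins (ENSMUSG00000040274, mm10 chromosome 5, 3341485 to 3531008, plus strand), had 0.35, 0.30 and 0.41 TPM in WT cells with estradiol, against 27.3, 27.9 and 26.3 TPM in untreated WT cells. Every estradiol library was far below every untreated one, and its value rested on 19.4 to 26.5 expected counts a library. The log2 fold change of counts was -5.84 (SE 0.0926, adjusted p = 1.58e-30 by edgeR's quasi-likelihood test). Only 0.916% of tested genes had a log2 fold change as low as that of Cdk6 or lower.

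Cdk4, the second of these kinases (chromosome 10, 127063534 to 127067920, plus strand), had 131, 134 and 138 TPM in WT cells with estradiol, against 797, 796 and 769 TPM in untreated WT cells. The groups did not overlap, and the log2 fold change was -2.16 (SE 0.0263, adjusted p = 1.65e-33). Cdk4 gave most of the Cdk4 and Cdk6 transcript in either group. Cdk6 made up 0.262% ± 0.0358 of their summed TPM with estradiol and 3.33% ± 0.0429 without (SD, n = 3 each). Summed, they stood at 135 ± 3.90 TPM with estradiol and 815 ± 16.8 TPM without (SD, n = 3 each).

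Ccnd3 (chromosome 17, 47505051 to 47599691, plus strand) had 540, 527 and 529 TPM in WT cells with estradiol, against 236, 239 and 235 TPM in untreated WT cells. All estradiol libraries were higher (log2 1.54, SE 0.0266, adjusted p = 1.28e-29). Ccnd2, another D-type cyclin (chromosome 6, 127125162 to 127152193, minus strand), went the other way, with 19.4, 18.0 and 20.1 TPM in WT cells with estradiol, against 138, 136 and 136 TPM in untreated WT cells. Its fall was 5.87-fold (log2 -2.55, SE 0.033, adjusted p = 1.66e-28).

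Ccnd2 thus took 3.47% ± 0.182 of D-cyclin TPM in WT cells with estradiol and 36.6% ± 0.306 in untreated WT cells (SD, n = 3 each), while Ccnd3 took 96.5% ± 0.174 and 63.3% ± 0.301. The two-sided exact permutation test on these shares gave p = 0.1, the smallest that 3 against 3 libraries allow. Summed D-cyclin TPM was 552 ± 7.47 with estradiol and 374 ± 2.18 without (SD, n = 3 each), so the sum was higher with estradiol although Ccnd2 fell. TPM is relative to the rest of the library, so that this sum does not give D-cyclin transcript per cell.

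Ccnd1 (chromosome 7, 144929931 to 144939925, minus strand) was scarcely expressed, with 0.49, 0.44 and 0.36 TPM in WT cells with estradiol, against 0.22, 0.24 and 0.13 TPM in untreated WT cells. The groups did not overlap (log2 1.37, SE 0.284, adjusted p = 6.25e-05), but no library held more than 37.4 counts. In the annotation 1100 bases of its exons lie opposite exons of LTO1, which also rose (log2 1.05, adjusted p = 1.28e-15). Whether strand was used in counting is not given in the sources used here, and the part of LTO1 reads in the Ccnd1 value was not tested. Cdk4 shares 641 exonic bases with Tspan31 on the opposite strand, which fell as Cdk4 did (log2 -0.70). Ccne2 shares 609 with Ints8, which rose (log2 0.33). The part of these neighbours in the Cdk4 and Ccne2 values was not tested. Ccnd3 shares 361 exonic bases with Bysl on the opposite strand, which fell (log2 -0.64), and Cdk2 shares 34 with Pmel (log2 -2.32). Pmel was scarcely expressed, at a mean of 0.11 TPM in WT cells with estradiol and 0.66 TPM in untreated WT cells.

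The E-type cyclins fell unequally. Ccne1 (chromosome 7, 38097984 to 38107534, minus strand) had 6.94, 5.27 and 4.74 TPM in WT cells with estradiol, against 45.1, 45.9 and 43.6 TPM in untreated WT cells (log2 -2.85, SE 0.0636, adjusted p = 1.01e-26). Ccne2 (chromosome 4, 11191351 to 11204779, plus strand) had 13.6, 14.6 and 13.3 TPM with estradiol, against 42.7, 46.4 and 41.8 TPM without (log2 -1.44, SE 0.0522, adjusted p = 2.84e-21). Both were at overlapping TPM levels before estradiol, and Ccne2 was above Ccne1 in every WT library with estradiol. Ccne2 made up 71.1% ± 4.30 of E-cyclin TPM with estradiol and 49.3% ± 0.881 without (SD, n = 3 each, exact permutation p = 0.1).

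Cdk2, the kinase of the E-type cyclins (chromosome 10, 128697939 to 128705031, minus strand), changed least of the 6 that fell. It had 27.6, 29.4 and 27.7 TPM in WT cells with estradiol, against 71.1, 69.3 and 70.6 TPM in untreated WT cells (log2 -1.01, SE 0.0392, adjusted p = 1.63e-20). The order of TPM levels among the G1 cyclin and kinase genes also changed. With estradiol it ran Ccnd3, Cdk4, Cdk2, Ccnd2, Ccne2 and Ccne1, with Ccnd1 and Cdk6 last and overlapping. Without estradiol it ran Cdk4, Ccnd3, Ccnd2, Cdk2, then Ccne1 and Ccne2, which overlapped, then Cdk6 and Ccnd1.

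**Figure D1:**
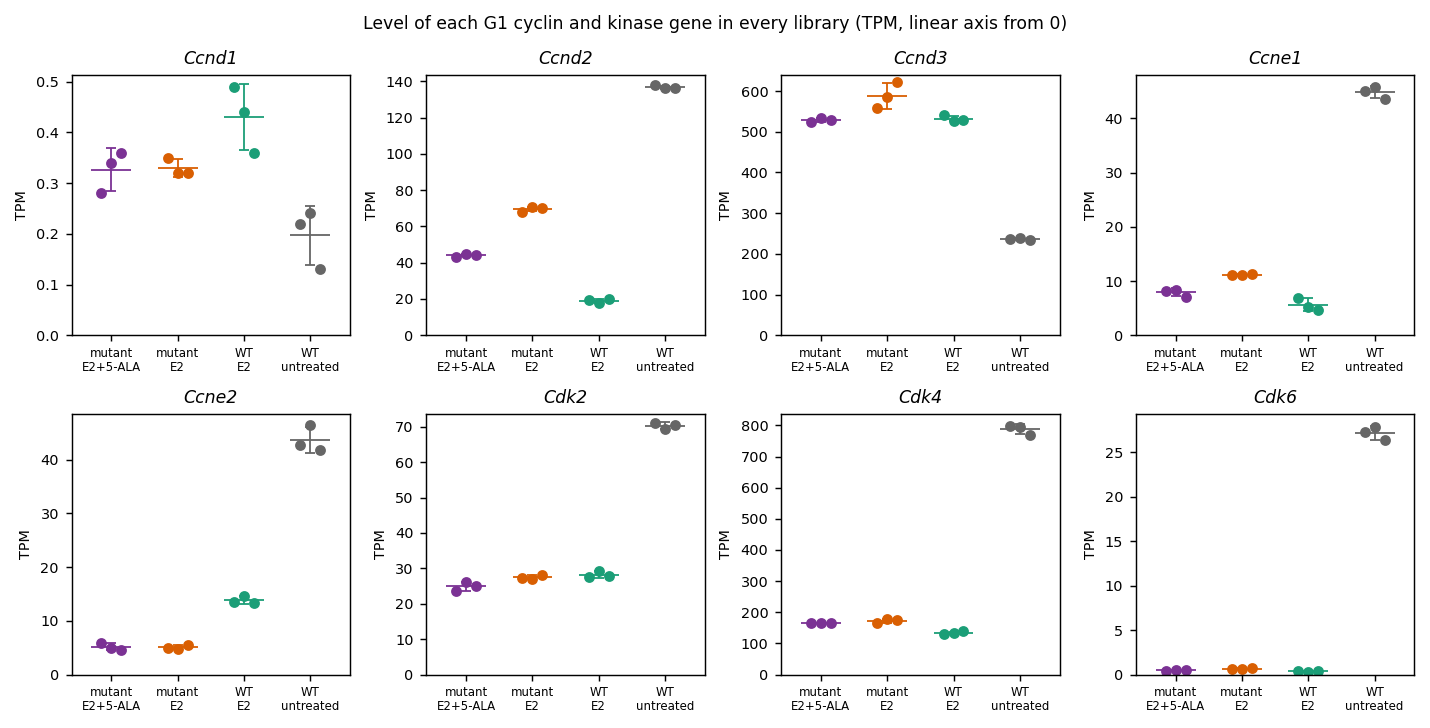
Level in TPM (y axis, linear, from 0) of each of the 8 genes in the 12 libraries: points are libraries, the line is the group mean and the bars are ± 1 SD (n = 3). Mutant cells with estradiol (E2) and 5-ALA, mutant cells with E2, WT cells with E2 and untreated WT cells run from left to right, and Ccnd2 stands at 43.4 to 44.6, 68.1 to 70.5, 18.0 to 20.1 and 136 to 138 TPM in them.

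Genes that act on these cyclins and kinases moved in both directions. Of 5 tested CDK inhibitors 4 rose and 1 fell (median log2 1.46), although Cdkn2c was no longer called when counts were scaled by library totals alone. Cdkn1b, which encodes p27, had 191 ± 2.71 TPM with estradiol and 16.0 ± 0.635 TPM without (log2 3.76, SE 0.0286), and Cdkn1a, which encodes p21, had 980 ± 13.3 TPM and 85.1 ± 4.15 TPM (log2 3.74, SE 0.0316; SD, n = 3 each). Cdkn2d, an INK4 inhibitor, had a log2 fold change of 1.46, and Cdkn2b was the one that fell. Cdkn1c and Cdkn2a had too few counts to be tested.

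Of 13 pocket protein and E2F genes 11 fell and 2 rose, with a median log2 fold change of -2.26. Those that rose were Rb1, the retinoblastoma gene (log2 1.90), and its relative Rbl2 (0.64), while Rbl1 fell (-3.76). E2f8, a repressor E2F, and E2f2, an activator E2F, had the largest falls (-5.84 and -4.60). Of 16 genes for CDK activation and cyclin turnover 10 fell and 4 rose (median -0.92), with Cks1b and Skp2, which act in p27 degradation, at -5.06 and -4.98. Fbxw7, whose protein marks cyclin E for degradation, rose (3.84). With library totals alone 14 of these 16 fell and 2 rose. Myc, a regulator of proliferation, had a log2 fold change of -1.98.

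All 15 S-phase genes fell (median -3.97), with Cdt1 and Mcm3, which license replication origins, at -5.32 and -4.85 and Rrm2, a ribonucleotide reductase subunit, at -5.13. Among 5 mitotic cyclin and kinase genes 4 fell, led by Cdk1 (-6.24), then Ccna2 (-4.05) and Ccnb2 (-4.00), and Ccnf did not pass the test (-0.04, adjusted p = 0.197), although it was called lower with library totals (-0.38). Ccna2 stands in both lists. Markers of 2 other lineages moved too. The 5 mast cell markers summed to 2.14 to 2.40 TPM in WT cells with estradiol and 203 to 212 TPM in untreated WT cells, with Mcpt8, Fcer1a and Tpsb2 at 0 in both, and Cpa3 held nearly all of the sum. The megakaryocyte markers did not move one way, as 3 of 5 tested rose and 2 fell. Their sum, 498 to 510 TPM with estradiol and 188 to 192 TPM without, followed the integrin gene Itgb3, at 468.5 ± 4.26 TPM and 28.2 ± 0.884 TPM, while the platelet factor gene Pf4 was at 6.66 ± 0.508 TPM and 97.1 ± 5.35 TPM (SD, n = 3 each). Their part in the cyclin values was not tested.

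**Figure D2:**
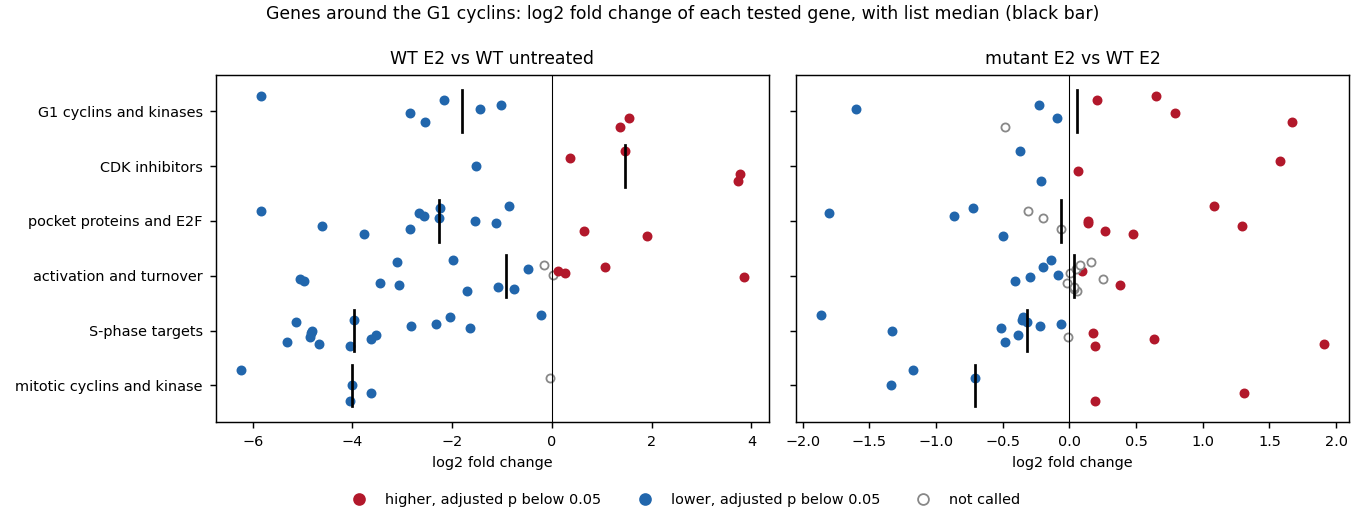
Log2 fold change (x axis) of each tested gene in 6 lists (y axis) for estradiol-treated against untreated WT cells, and for mutant against WT cells with estradiol, each on its own x range. Filled points are called, open points are not, and black bars are list medians; Cdkn2b, at 0 counts in mutant cells, and the median of its list are left out of the second panel.

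The second comparison sets mutant against WT cells, both with estradiol. Mutant cells had 3.19-fold more Ccnd2 and 3.03-fold less Ccne2, and Ccne1 was 1.73-fold higher. Over the 8 genes 4 were called higher and 3 lower, with 68.8% of all tested genes called, 35.1% higher and 33.6% lower. With library totals alone, and on log2(TPM + 1), 5 of the 8 were called higher and 1 lower. The median over the 8 genes was 0.06, against -0.01 over all genes. There are no untreated mutant cells, so a difference present before estradiol cannot be told apart from one that arose with it.

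Ccnd2 had 68.1, 70.5 and 70.1 TPM in mutant cells with estradiol, against 19.4, 18.0 and 20.1 TPM in WT cells with estradiol. The mutant libraries lay between the WT libraries with and without estradiol (log2 1.67, SE 0.0335, adjusted p = 3.23e-23). The share of Ccnd2 in D-cyclin TPM was 10.6% ± 0.388 in mutant cells and 3.47% ± 0.182 in WT cells (SD, n = 3 each, exact permutation p = 0.1). Antisense genes that share 368 and 372 exonic bases with Ccnd2 are annotated, and 1 of them is in the tables, with 14.0 counts over the mutant libraries and 8.26 over the WT libraries.

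Cyclin E makeup was turned round between the genotypes. Ccne1 had 11.06, 11.04 and 11.36 TPM in mutant cells, against 6.94, 5.27 and 4.74 TPM in WT cells (log2 0.79, SE 0.0721, adjusted p = 6.92e-11). Ccne2 had 4.94, 4.76 and 5.45 TPM in mutant cells, against 13.6, 14.6 and 13.3 TPM in WT cells (log2 -1.60, SE 0.0653, adjusted p = 4.96e-19). In each mutant library Ccne1 was the more abundant E-type cyclin, and in each WT estradiol library it was Ccne2. Ccne2 took 31.1% ± 1.17 of E-cyclin TPM in mutant cells and 71.1% ± 4.30 in WT cells (SD, n = 3 each, exact permutation p = 0.1). Their summed level was 16.2 ± 0.535 TPM in mutant cells and 19.5 ± 1.30 TPM in WT cells, also without overlap. Of the Ccne2 exons 609 bases lie opposite exons of Ints8, which was also lower in mutant than in WT cells (log2 -0.54, adjusted p = 1.74e-14).

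Cdk6 was low in both genotypes, with 0.59, 0.62 and 0.73 TPM in mutant cells, against 0.35, 0.30 and 0.41 TPM in WT cells. The groups did not overlap (log2 0.65, SE 0.163, adjusted p = 0.00358), on 19.4 to 58.0 counts a library, but without WT replicate 2 the adjusted p was 0.0527. Cdk4 had 165, 179 and 175 TPM in mutant cells, against 131, 134 and 138 TPM in WT cells (log2 0.21, SE 0.0284, adjusted p = 1.55e-07). Its exons share 641 bases with Tspan31 on the opposite strand, and Tspan31 had a log2 fold change of -0.14.

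Ccnd3 and Cdk2 were close between genotypes, and their differences depend on the scale. Ccnd3 had 558, 586 and 621 TPM in mutant cells, against 540, 527 and 529 TPM in WT cells. By counts scaled with TMM it fell in mutant cells (log2 change of -0.09, SE 0.0255, adjusted p = 0.00225), but it was higher with library totals alone (0.062, adjusted p = 0.0191) and on log2(TPM + 1) (0.14, adjusted p = 0.00148). On the last 2 scales the median over all genes moved up by 0.15 and 0.19 relative to TMM. Without mutant replicate 1 the adjusted p was 0.121 by TMM. Cdk2 had 27.2, 27.1 and 28.1 TPM in mutant cells, against 27.6, 29.4 and 27.7 TPM in WT cells, and its call as lower (log2 -0.23, adjusted p = 2.85e-05) was not made with library totals (adjusted p = 0.101) or TPM (adjusted p = 0.456). Ccnd1 had 0.32 to 0.35 TPM in mutant cells and 0.36 to 0.49 TPM in WT cells and did not pass the test (log2 -0.49, adjusted p = 0.0983).

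**Figure D3:**
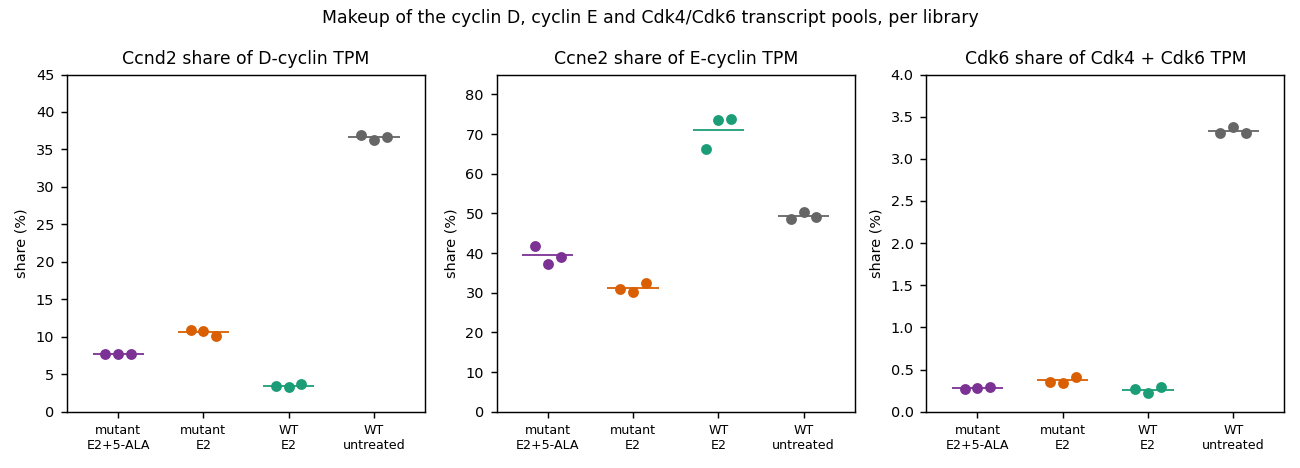
Share in percent (y axis, from 0) of Ccnd2 in summed D-cyclin TPM, of Ccne2 in summed E-cyclin TPM and of Cdk6 in summed Cdk4 and Cdk6 TPM, with 1 point per library and a line at each group mean. The Ccne2 share averages 39.4% in mutant cells with estradiol and 5-ALA, 31.1% in mutant cells with estradiol, 71.1% in WT cells with estradiol and 49.3% in untreated WT cells.

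Among the CDK inhibitors, Cdkn2c, which encodes the CDK4 and CDK6 inhibitor p18, had 147 ± 6.39 TPM in mutant cells and 44.3 ± 2.72 TPM in WT cells (SD, n = 3 each; log2 1.58, SE 0.0587, adjusted p = 1.27e-12). Of 5 tested inhibitors 2 were higher and 3 lower. Cdkn2d had a log2 fold change of -0.37, and that of Cdkn1a was -0.21 by counts but 0.0025 on log2(TPM + 1), where it was not called. Cdkn2b had 0 counts over the mutant libraries and 24 over the WT libraries.

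Of the 13 pocket protein and E2F genes 6 were higher and 4 lower in mutant cells (median -0.07, and 0.09 with library totals). E2f2 had 3.58 to 4.08 TPM in mutant cells and 1.08 to 1.36 TPM in WT cells (log2 1.30), and Tfdp2, a partner of E2F proteins, had a log2 fold change of 1.09. E2f7, a repressor E2F, had -1.80. Of 16 activation and turnover genes 2 were higher and 5 lower by TMM (median 0.03), but 9 were higher and 1 lower with library totals. Cdc25a, a phosphatase that activates CDKs, had 0.38, Fbxw7 had -0.30, and Skp2 had -0.41, which was not called with library totals (adjusted p = 0.0902).

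Of the 15 S-phase genes 10 were lower and 4 higher (median -0.32), or 7 and 6 with library totals. Of them Cdc6, which loads replication helicases, had the highest log2 fold change (1.91), and Mcm6, a helicase subunit, had -1.33. Among the mitotic genes Ccnb1 was higher (1.31) while Ccnb2 and Cdk1 were lower (-1.34 and -1.17), for 2 higher and 3 lower of 5. Megakaryocyte markers summed to 135 to 138 TPM in mutant cells and 498 to 510 TPM in WT cells, with 4 of 5 tested lower, Pf4 not called and Gp1bb at 0 in both, and mast cell markers to 0.30 to 0.56 and 2.14 to 2.40 TPM. Their part in these differences was not tested.

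**Figure D4:**
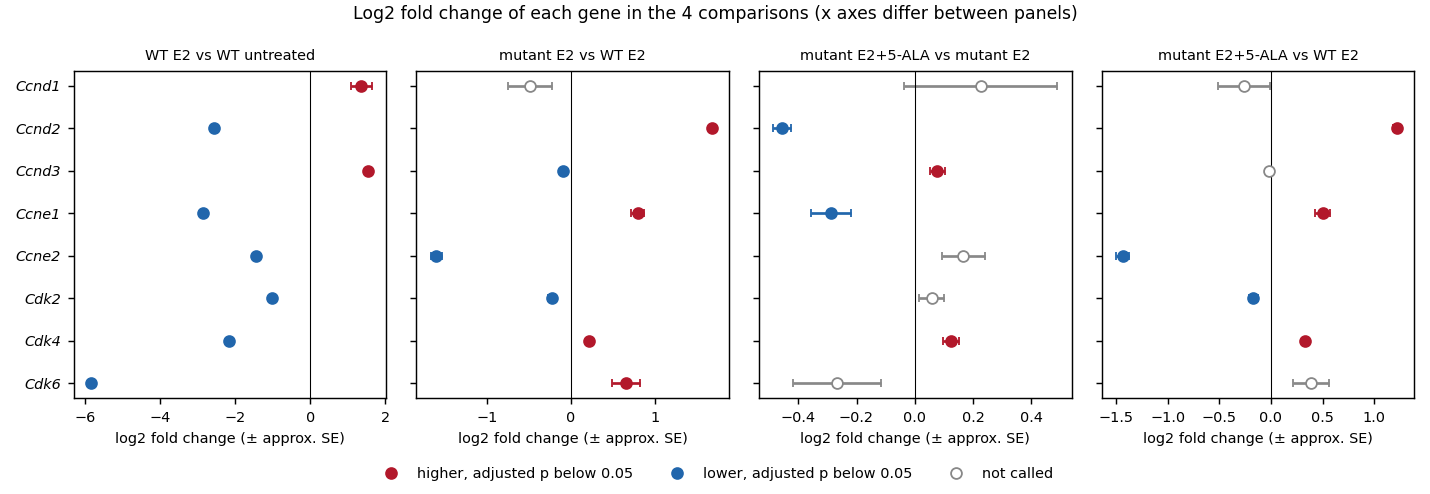
Log2 fold change of counts (x axis, its range differing between panels) of the 8 genes (y axis) in the 4 comparisons, with bars of ± 1 approximate SE. Red and blue points passed the test as higher or lower and open points did not; Ccnd2 is at -2.55, 1.67, -0.45 and 1.22 from left to right.

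Adding 5-ALA to mutant cells with estradiol lowered Ccnd2 and Ccne1. Both stayed above WT cells with estradiol. Of the 8 genes 2 were higher and 2 lower, beside 42.6% of all tested genes called, 21.6% higher and 21.0% lower. On log2(TPM + 1) none of the 8 was called higher and 5 were called lower, namely Ccnd2, Ccnd3, Ccne1, Cdk2 and Cdk6. Medians were 0.07 over the 8 genes and 0.01 over all genes. This comparison and the previous one share the mutant libraries with estradiol, so that opposite signs in them are not independent.

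Ccnd2 had 43.4, 44.6 and 44.4 TPM in mutant cells with estradiol and 5-ALA, against 68.1, 70.5 and 70.1 TPM in mutant cells with estradiol. The groups did not overlap (log2 -0.45, SE 0.0306, adjusted p = 8.71e-12). Its share of D-cyclin TPM was 7.69% ± 0.0527 with 5-ALA and 10.6% ± 0.388 without (SD, n = 3 each, exact permutation p = 0.1). Ccne1 had 8.22, 8.43 and 7.14 TPM with 5-ALA, against 11.06, 11.04 and 11.36 TPM without, again with no overlap (log2 -0.29, SE 0.0675, adjusted p = 0.00092).

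Ccne2 had 5.91, 5.01 and 4.58 TPM with 5-ALA, against 4.94, 4.76 and 5.45 TPM without, and it did not pass the test (log2 0.17, SE 0.0745, adjusted p = 0.0735). Its share of E-cyclin TPM was nonetheless 39.4% ± 2.29 with 5-ALA and 31.1% ± 1.17 without (SD, n = 3 each, exact permutation p = 0.1), as Ccne1 was lower. Cdk6 had 0.45, 0.47 and 0.49 TPM with 5-ALA, against 0.59, 0.62 and 0.73 TPM without, and was not called by counts (log2 -0.27, SE 0.150, adjusted p = 0.277), although it was on log2(TPM + 1) (adjusted p = 0.0437).

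Small rises of Cdk4 and Ccnd3 rested on the scaling. Cdk4 had 166, 167 and 167 TPM with 5-ALA, against 165, 179 and 175 TPM without. By TMM counts it was higher (log2 0.12, SE 0.0275, adjusted p = 0.000519), by library totals the difference was 0.02 and by TPM it was -0.050, neither of them called. Ccnd3 had 524, 533 and 530 TPM with 5-ALA, against 558, 586 and 621 TPM without. It was higher by TMM counts (log2 0.08, adjusted p = 0.0157), with overlapping libraries, and lower on log2(TPM + 1) (-0.15, adjusted p = 0.00149). With library totals it was not called (-0.025, adjusted p = 0.394), nor without mutant replicate 1 (adjusted p = 0.17) or without 5-ALA replicate 2 or 3 (adjusted p = 0.182 and 0.14). On the TPM scale the median over all genes moved by -0.19 and with library totals by -0.10 (log2). The erythroid markers summed to 126399 to 132876 TPM with 5-ALA and 42411 to 44588 TPM without, the megakaryocyte markers, of which 3 of 5 tested were higher, to 211 to 214 TPM and 135 to 138 TPM, and the mast cell markers to 0.03 to 0.31 TPM and 0.30 to 0.56 TPM; their part in these differences was not tested. Cdk2 and Ccnd1 were not called (log2 0.06 and 0.23, adjusted p = 0.308 and 0.533).

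Around them, 3 of the 5 tested CDK inhibitors fell with 5-ALA and 2 were not called. Cdkn2c had 97.5 ± 8.47 TPM with 5-ALA and 147 ± 6.39 TPM without (SD, n = 3 each; log2 -0.42), Cdkn2d had a log2 fold change of -0.30 and Cdkn1b of -0.14. Pocket protein and E2F genes had 4 higher and 4 lower of 13 (median -0.03), with E2f7 at 0.96, E2f2 at -0.50 and Tfdp2 at -0.42. On log2(TPM + 1) 1 was higher and 5 lower.

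Myc was the largest change among the activation and turnover genes, with 63.4 to 67.5 TPM in mutant cells with 5-ALA and 34.8 to 38.6 TPM without (log2 1.02, SE 0.0423, adjusted p = 3.99e-16), in a list with 4 higher and 3 lower of 16 (median 0.02), or 1 and 11 by TPM. Fbxo4 and Cks1b had -0.37 and -0.33. Of the 15 S-phase genes 3 rose and 6 fell (median -0.04), or 2 and 9 with library totals, with Rrm2 at -0.80 and Ccna2 at -0.77. Of the mitotic genes Ccnb1 had -0.54 and Ccnf 0.31, and 1 was higher and 2 lower of 5.

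The last comparison sets mutant cells with estradiol and 5-ALA against WT cells with estradiol. WT cells received no 5-ALA, so that genotype and 5-ALA both differ between these groups. A difference here need not predate 5-ALA: Myc had a log2 fold change of -0.14 without it and 0.88 with it. Of the 8 genes 3 were higher and 2 lower, beside 62.3% of tested genes called, 33.3% higher and 29.0% lower, and the medians were 0.16 over the 8 genes and 0.01 over all. Ccnd2 was 2.33-fold higher, at 43.4 to 44.6 TPM against 18.0 to 20.1 TPM (log2 1.22, SE 0.0341, adjusted p = 5.61e-20). Ccne2 was 2.70-fold lower, at 4.58 to 5.91 TPM against 13.3 to 14.6 TPM (log2 -1.44, SE 0.0648, adjusted p = 9.15e-18). Ccne1 was higher by 0.50 on the log2 scale (adjusted p = 1.02e-06) and Cdk4 by 0.33 (adjusted p = 1.99e-11). In all of these the libraries of the 2 groups did not overlap.

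Cdk2 was lower by counts (log2 -0.17, adjusted p = 0.00105). Cdk6, Ccnd1 and Ccnd3 were not called (log2 0.38, -0.26 and -0.01, adjusted p = 0.129, 0.391 and 0.634), and the sign of the Ccnd3 value turned with library totals (0.037). Ccne2 took 39.4% ± 2.29 of E-cyclin TPM in mutant cells with 5-ALA and 71.1% ± 4.30 in WT cells with estradiol (SD, n = 3 each, exact permutation p = 0.1).

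Of the CDK inhibitors 1 was higher, Cdkn2c (log2 1.16), and 4 lower of 5 tested, with Cdkn2d at -0.66 and Cdkn1a at -0.18. Pocket protein and E2F genes were 5 higher and 5 lower of 13 (median -0.00), with E2f7 at -0.84, E2f2 at 0.80 and E2f8 at -0.74, the last not called on log2(TPM + 1) (adjusted p = 0.447). Activation and turnover genes were 5 higher and 3 lower of 16 (median 0.03), or 7 and 2 with library totals and 2 and 3 on log2(TPM + 1), with Myc at 0.88, Skp2 at -0.75 and Fbxo4 at -0.29, the last not called with library totals (adjusted p = 0.0658). S-phase genes were 2 higher and 11 lower of 15 (median -0.34), with Cdc6 at 1.54, Mcm6 at -1.52 and Rrm2 at -1.12, and mitotic genes 1 higher and 4 lower of 5 (median -0.58), with Ccnb2 at -1.62, Ccnb1 at 0.77 and Ccna2 at -0.58.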

How the data were processed

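Per the submitters' processing notes, CASAVA 1.8.2, RSEM 1.2.20 and Bowtie 1.1.1 were used with build mm10; annotation release and strand use were not given in the sources used here. The authors deposited 1 table per library with the RSEM expected count of each gene and its TPM, which is scaled for transcript length and library size, both per the file headers. Per the same headers the tables hold an abundance-weighted transcript length, used here to describe isoform mix, and FPKM, not used here. GENCODE M21 gave names for 24746 identifiers and the positions; RefSeq gave the promoters.

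Expected counts were rounded, filtered with filterByExpr (12115 genes kept), normalised by TMM and modelled in edgeR 4.0.16 (R 4.3.3) with 1 mean per group, all 12 libraries entering. Groups were compared by the robust quasi-likelihood F test with Benjamini-Hochberg adjustment over all tested genes, and called at adjusted p below 0.05; the common biological coefficient of variation was 0.0334. SEs are approximate, from dividing the log2 change by the square root of its F statistic. Shares were formed from TPM, which is scaled for length. Library-wide scale cancels in a share, while single and summed TPM levels move with the rest of the library. The genes and lists were chosen with earlier results of these data known. Named genes are the 8 genes, Alas2, Gata1, up to 3 called genes a list and comparison with the largest change and a mean of at least 1 CPM, and the gene most like each of the 8; others, such as overlapping neighbours, were named after their values were seen. An S-phase gene that this rule names is not reported here. Replicate libraries of a group differed by more than sampling noise (chi-square per degree of freedom 1.73 to 13.7). Alternatives were DESeq2 1.42.0, limma 3.58.1 on log2(TPM + 1), other scalings and filters, 2-group fits, a replicate block and leaving out each library. A planned comparison of protein sequences was not made.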

Additional observations from a re-analysis of the deposited data

How the results depend on the processing

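In WT cells, all 8 genes kept their direction and call with estradiol under every alternative in which they were tested; the stricter filter of 5 CPM in 3 libraries leaves Ccnd1 out, for 7 calls. For 5-ALA in mutant cells, library totals alone gave 2 calls among the 8 genes, both lower, and TPM gave 5, all lower, against 2 higher and 2 lower by TMM, and leaving out 1 library gave 3 to 5; leaving out 1 library gave 6 to 7 calls of mutant against WT cells. Splits of all calls by library totals were 5650 higher and 2844 lower for mutant against WT cells (4258 and 4076 by TMM) and 1434 and 4642 for 5-ALA (2620 and 2543 by TMM); by TPM they were 5618 and 2326, and 806 and 5719. For estradiol the median over all genes moved by -0.34 with library totals and -0.27 with TPM.

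Signs that turned were those of Ccnd3 in mutant against WT cells (0.062 with library totals, 0.14 with TPM), with 5-ALA (-0.025 and -0.15) and against WT after 5-ALA (0.037 with library totals, and -0.021 to 0.016 leaving out 1 library). With 5-ALA, Cdk2 also turned to -0.044 with library totals and -0.14 with TPM (adjusted p = 0.0132), and with TPM Cdk4 turned to -0.050 and Ccnd1 to -0.0040. With library totals the median over all genes moved by 0.15 for mutant against WT cells and by -0.10 for 5-ALA. It moved by 0.052 against WT after 5-ALA. The cause of the turned signs was not tested. Over all 4 comparisons, 421 values of single genes kept sign and call, 10 turned, 11 lost and 2 gained the call.

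With expected counts over a fixed length in place of TPM, the estradiol differences in share were -34.7 points for Ccnd2 and -3.15 points for Cdk6, against -33.1 and -3.07. Leaving out 1 library, the Ccne2 share difference of mutant against WT cells ran between -42.5 and -38.7 points. No pairing of the samples by replicate number was seen, which does not show that there was none. Over 18 same-numbered pairs the correlation of deviations ran from -0.104 to 0.0669, and 3 of 12 libraries went best with their own number. With a replicate block the calls were 10832, 8245, 5032 and 7456 against 10864, 8334, 5163 and 7543 without, and no call among the 8 genes changed. Depth limits Cdk6 after estradiol and Ccnd1, which rest on under 60 counts a library.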

Other observations

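The transcript most like each gene over the 12 libraries, by Pearson's r of log2 CPM among 8632 genes with at least 5 CPM, was E2f2 for Ccne1 (r = 0.9994), Hdac5 for Ccnd3 (0.9997), Gtf2i for Cdk4 (0.9994), Nudc for Cdk6 (0.9991), Arl6 for Ccnd2 (0.9983), Canx for Ccne2 (0.9981) and Smoc1 for Cdk2 (0.9968). For Ccnd1 it was Mnt, with r = 0.9564, among 8633 genes. These are descriptions over 4 groups of libraries that differ mostly by estradiol, and r is set largely by that split. E2f2 encodes an E2F activator. Its TPM was 2.18 to 2.24 in mutant cells with estradiol and 5-ALA, 3.58 to 4.08 in mutant cells with estradiol, 1.08 to 1.36 in WT cells with estradiol and 44.4 to 50.3 in untreated WT cells, the same order of groups as Ccne1. By mean TPM, Ccnd2, Cdk4 and Cdk6 had this order of groups too, so that it is not particular to E2f2 and Ccne1.

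Abundance-weighted transcript length, which moves when isoform use moves, differed without overlap with estradiol in WT cells for Cdk2, Cdk4, Cdk6 and Ccnd3. For Cdk2 it was 2336 to 2345 bases in WT cells with estradiol and 2311 to 2316 bases in untreated WT cells. For Cdk4, with 9 transcripts in the tables, it was 900 to 976 bases in WT cells with estradiol and 868 to 887 bases in untreated WT cells. Cdk6, with 2 transcripts, had 3403 to 3735 bases and 3226 to 3283 bases, the first on at most 26.5 counts a library. Ccnd2 has 1 transcript in the tables, so its length is fixed. Ccnd3, with 21 transcripts, had 1567 to 1593 bases with estradiol and 1484 to 1509 bases without. In WT cells with estradiol, replicate 1 had a Ccne1 length of 1392 bases, against 1824 and 1903 bases in the other libraries, and the highest Ccne1 TPM of the group (6.94), while its expected counts scaled by TMM (6.23 CPM) lay between those of the other libraries (5.58 and 6.47 CPM).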
